A study of Mus musculus with 9 samples.

Results

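The Hox genes were followed through bulk RNA sequencing of mouse brain tissue, by taking every gene whose symbol is Hoxa, Hoxb, Hoxc or Hoxd followed by a number. The mouse annotation holds 39 such genes, and 30 of them have at least 1 row in the deposited table, which covers 18450 genes in all. The other 9, Hoxa9, Hoxa11, Hoxa13, Hoxc8, Hoxc11, Hoxc12, Hoxd3, Hoxd10 and Hoxd12, were not analysed here. All 9 mice carried the APP/PS1 genotype, human transgenes that give a model of amyloid deposition, and no mouse without them was included. The group field divides the animals into stress, standard environment control and enriched environment, with 3 libraries each, while the treatment field reads standard rearing for all 9. Brain stem and the anterior brain entered each library as 1 mixed RNA, so several regions were read at once, and the proportions of the pieces are not given. Age, sex, the promoters that drive the transgenes and the kind of stress are not stated in the labels. Animals carry separate codes that begin with C for the stress group and control 1, and with D for control 2, control 3 and the enriched group, and the meaning of the letter is not given. The libraries are named here by group and by a number given in accession order, which pairs no animals across groups.

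Hox genes encode homeodomain transcription factors and lie in 4 clusters, a to d, in which genes of like position and sequence form paralogue groups numbered from 1 to 13. Their order along each cluster follows the order in which they are switched on from the hindbrain down the spinal cord, so low numbers mark the front of this domain and high numbers the trunk and tail. Many hindbrain neurons keep a Hox pattern after development, whereas the forebrain, the midbrain and nearly all of the cerebellum normally do not use these genes. In tissue of mixed regions they are therefore read as a label of the medulla and the adjoining hindbrain, and in bulk RNA fewer cells of a type and less RNA per cell cannot be told apart.

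The homeobox, the 180 bases that encode the DNA-binding homeodomain, was compared between the Hox genes (GRCm38, GENCODE annotation), since near-identical copies can share reads. Hoxb5 differed from Hoxa5 at 29 of the 180 bases and from Hoxc5 at 45, and Hoxa5 differed from Hoxc5 at 42. Over the 11 Hox genes that passed the filter on low counts, described below, pairs of the same paralogue group differed at 11 to 46 bases, the 11 being Hoxa3 against Hoxb3, and pairs of different groups at 33 to 77. The longest stretch shared base for base within any pair was 33 bases. Where a read falls wholly inside such a stretch the counting can split it between paralogues, and no read length is stated in the labels.

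Promoters are shown for Hoxb4, Hoxc4 and Hoxd4, which share the group 4 position and were chosen after their values and sequences were seen. Each is the 250 bases before the gene's start in RefSeq, build GRCm38.p6, in the direction of the gene, with capitals on TGACCT, the reverse complement of AGGTCA, the half-site that retinoic acid receptors bind.
Hoxb4 (chr11:96318017-96318266, plus strand): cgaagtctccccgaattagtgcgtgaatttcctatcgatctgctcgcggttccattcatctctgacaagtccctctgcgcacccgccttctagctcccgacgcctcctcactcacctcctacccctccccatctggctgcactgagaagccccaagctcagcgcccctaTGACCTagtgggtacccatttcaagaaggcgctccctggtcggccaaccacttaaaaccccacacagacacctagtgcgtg
Hoxc4 (chr15:103034145-103034394, plus strand): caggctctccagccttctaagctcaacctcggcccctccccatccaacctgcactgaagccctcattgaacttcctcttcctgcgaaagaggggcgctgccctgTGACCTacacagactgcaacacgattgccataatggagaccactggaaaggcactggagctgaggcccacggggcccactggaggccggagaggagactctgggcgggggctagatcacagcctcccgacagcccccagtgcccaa
Hoxd4 (chr2:74721728-74721977, plus strand): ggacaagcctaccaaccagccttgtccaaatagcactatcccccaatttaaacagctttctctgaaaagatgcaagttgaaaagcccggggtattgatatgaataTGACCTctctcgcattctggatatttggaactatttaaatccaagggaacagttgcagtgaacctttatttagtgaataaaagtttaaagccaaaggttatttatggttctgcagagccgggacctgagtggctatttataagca
An entry was found for 6 of the 11 tested Hox genes. AGGTCA, searched on both strands, was present in 3 of the 6, and in 14% of the 32851 mouse promoters of the same length. TGATNNAT, a composite letter pattern of Pbx and Hox proteins, was present in 1 of the 6 and in 7.68% of all promoters. TATAAA was present in 1 of the 6 and in 12.4% of all, and TAATTA, the core that many homeodomains bind, in 0 of the 6 and in 4.84% of all. Matches of TGATNNAT and TAATTA can overlap each other. A match describes the sequence only.

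Expression lay mainly in the low paralogue groups among the genes with a row. The genes without a row are absent from the shares below, and all of them except Hoxd3 belong to groups 8 to 13. Levels between genes were compared as TPM, the authors' value scaled by transcript length and library size. Groups 4 and 5 held 30.8% and 32.6% of all Hox TPM summed over the 9 libraries, group 2 held 19.1%, group 3 held 10.3%, group 6 held 3.37% and group 1 held 2.53%. By cluster, b held 46.8%, a 35.7%, c 13.7% and d 3.86%, with Hoxd3 and Hoxd10 among the genes without a row. Hoxb5 came first with a mean of 2.82 TPM, followed by Hoxa4 with 2.2, Hoxa5 with 1.87, Hoxb2 with 1.86, Hoxc4 with 1.56, Hoxb3 with 1.47 and Hoxa2 with 1.12. Hoxb4 had a mean of 0.733 TPM, Hoxc5 0.397, Hoxb6 0.340 and Hoxd4 0.313. Each gene's range over the 9 libraries overlapped that of its neighbour in this order, Hoxb5 running from 0.06 to 12.5 TPM and Hoxa4 from 0.1 to 5.46 TPM. Some levels rest on part of a gene, since 22 of the 30 genes had every annotated coding transcript in the table. The other 8 had only some, Hoxa3, Hoxb3 and Hoxc4 among these.

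Depth set a limit on the weaker members. The Hox genes together drew 2266 reads (estimated counts) over all libraries, against library totals between 15851833 and 17213008, and 93.4% of them came from 11 genes that had enough reads to be tested, Hoxa2, Hoxa3, Hoxa4, Hoxa5, Hoxb2, Hoxb3, Hoxb4, Hoxb5, Hoxc4, Hoxc5 and Hoxd4. Of the 19 others, 4 had 10 or more reads in all, among them Hoxb6 with 34, Hoxd1 with 27 and Hoxc6 with 19. A further 12 had 1 to 9 reads, and Hoxc10, Hoxd9 and Hoxd11 had 0 in every library. Taken singly, a library with 0 reads allows up to 0.178 to 0.188 CPM (3 reads, counting error only). A 0 in all 9 libraries sets a lower limit than this on the mean level. CPM is the count scaled to library size, with library sizes adjusted by the trimmed mean of M-values (TMM), and 1 CPM stood for at most 16.8 reads in these libraries. The 13 genes of groups 7 to 13 with a row, which pattern the trunk and limbs, gave 30 reads in all and at most 6 in any 1 library, those of Hoxb8 in control 2. With a mean of at least 1 CPM over the libraries as the threshold, 6 Hox genes counted as detected, and they are described singly next.

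**Figure D1:**
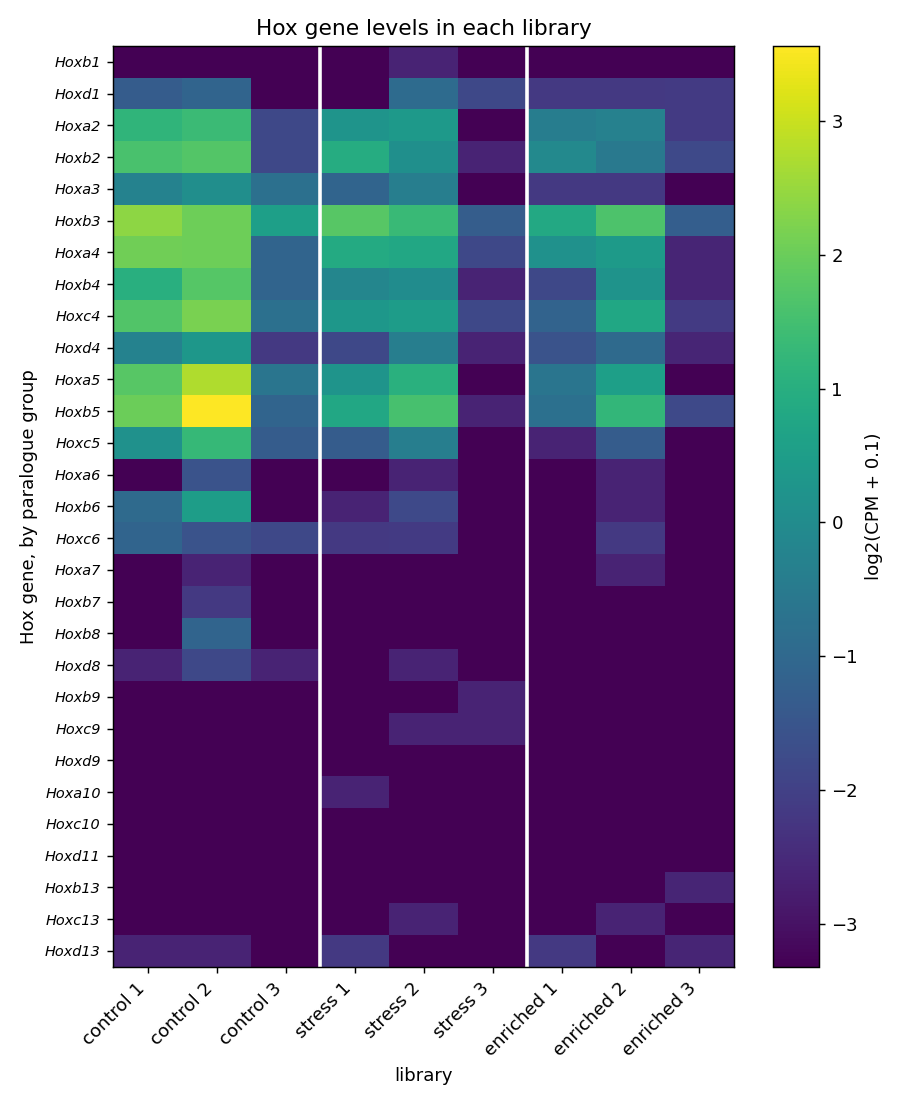
Level of Hox genes with a row in each of the 9 libraries, as log2(CPM + 0.1) on a colour scale, with genes ordered by paralogue group from top to bottom and white lines between the groups of mice. Signal lies mostly in paralogue groups 2 to 5, is brightest for Hoxb5 in control 2 (11.7 CPM), and is dimmest in the third library of each group.

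Among the group 2 and group 3 genes, Hoxb2, which acts with Hoxb1 in the identity of facial motor neurons, stood at 2.89, 3.20 and 0.182 CPM in control 1, 2 and 3. It stood at 1.82, 0.985 and 0.0611 CPM in the stress libraries and at 0.839, 0.595 and 0.188 CPM in the enriched ones. Control 3 thus lay below enriched 1 and enriched 2 and below 2 of the 3 stress libraries, and the groups overlapped. Control 3 and enriched 3 had 3 reads each, so the gap between them came from library size scaling.

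Hoxb3, which is active in the caudal hindbrain, stood at 5.13, 4.05 and 1.39 CPM in the controls. The stress libraries had 3.34, 2.46 and 0.305 CPM and the enriched libraries 1.68, 3.03 and 0.314 CPM. Control 3 lay below both of the higher libraries of either other group, and the 3 groups again overlapped. Its span, chromosome 11 from 96307101 to 96347930, covers the whole of Hoxb4, and 6 of its 11 annotated coding transcripts have a row.

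Group 4 genes have their front border inside the caudal hindbrain. Hoxa4 had 4.10, 3.99 and 0.363 CPM in the controls, 1.76, 1.66 and 0.183 in the stress libraries, and 1.02, 1.25 and 0.0627 in the enriched libraries. Hoxc4 had 3.14, 4.41 and 0.484 CPM in the controls, 1.15, 1.29 and 0.183 in the stress libraries, and 0.359, 1.61 and 0.125 in the enriched libraries. For both genes, control 1 and control 2 exceeded every other library and control 3 fell below 2 libraries of the stress group.

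Hoxb5 and Hoxa5 belong to the group used at the passage from medulla to cervical cord, and Hoxa5 takes part in the circuits that drive breathing. Hoxb5, on chromosome 11 from 96303512 to 96306121, had 3.92, 11.7 and 0.363 CPM in the controls, 1.64, 2.83 and 0.0611 in the stress libraries, and 0.479, 2.26 and 0.188 in the enriched libraries. Hoxa5, on chromosome 6 from 52201754 to 52204587, had 3.32, 6.64 and 0.545 CPM in the controls, 1.09, 1.97 and 0 in the stress libraries, and 0.539, 1.37 and 0 in the enriched libraries. Both were highest in control 2, and Hoxa5 had no read in stress 3 or enriched 3. The library kit described in the labels marks no strand, so reads of Hoxb5 cannot be told apart from those of the antisense Hoxb5os, which covers it, nor Hoxa5 from Hoxaas3. The annotated span of Hoxa3 also covers Hoxa4, Hoxa5 and Hoxa6, and shared exons were not examined.

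The 5 tested genes below the 1 CPM mean, Hoxa2, Hoxa3, Hoxb4, Hoxc5 and Hoxd4, had means of 0.384 to 0.961 CPM and at most 3.26 CPM in a library, that of Hoxb4 in control 2. Control 2 was the highest of the 9 libraries for 9 of the 11 tested genes, and control 1 for the other two, Hoxa4 and Hoxb3. The third library was the lowest of its own group for all 11 genes in each of the 3 groups.

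Summed over all 30 genes, the Hox level came to 30.6, 47.5 and 5.08 CPM in the controls, a mean of 27.7 ± 21.3 (SD, n = 3). It came to 14.5, 16.6 and 1.34 CPM in the stress libraries, 10.8 ± 8.24 (SD, n = 3), and to 6.71, 13.4 and 1.38 CPM in the enriched libraries, 7.16 ± 6.01 (SD, n = 3). The highest library exceeded the lowest of its own group 9.34-fold in the controls, 12.3-fold under stress and 9.70-fold in the enriched group. These distances rest on the third libraries: without them, the remaining pair differed 1.55-fold, 1.15-fold and 1.99-fold. Without control 2 the control ratio was 6.03, and without enriched 2 the enriched ratio was 4.86.

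**Figure D2:**
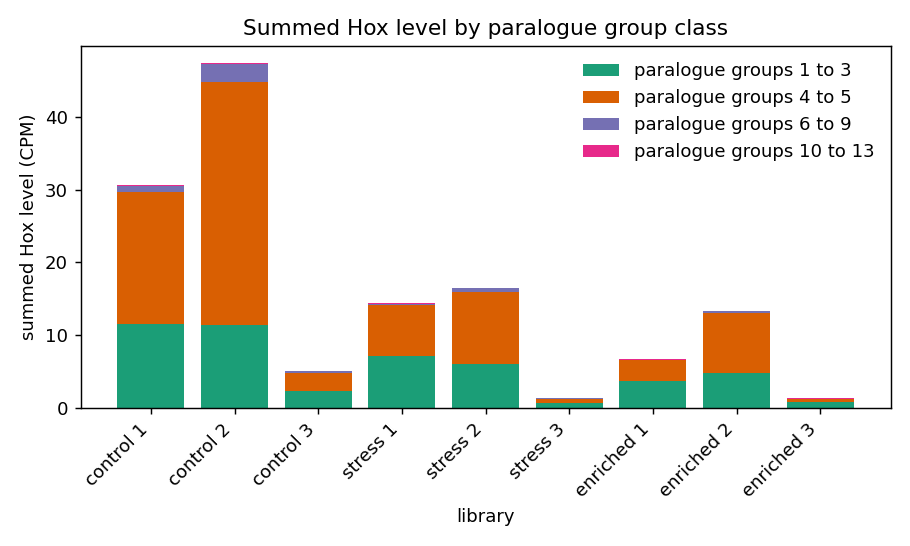
Summed Hox level of each library in CPM, stacked by class of paralogue group, 1 bar per library. Control 2 reaches 47.5 CPM, and the third library of each group reaches 5.08 CPM or less.

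The distance between animals of 1 group was wider for Hox genes than for most genes. The range of log2 CPM within a group had a median over the tested Hox genes of 2.90 in the controls, 2.72 under stress and 2.69 in the enriched group. Over all 14694 genes tested the same medians were 0.41, 0.36 and 0.25. Over the 1502 genes of about the same mean level, for which counting error is alike, they were 0.78, 0.87 and 0.76. The biological coefficient of variation, the replicate spread beyond counting error that edgeR estimates around group means, had a median of 0.828 over the Hox genes, from 0.495 for Hoxa3 to 1.10 for Hoxa5. It was 0.149 over all genes and 0.291 over genes of the same level, 3.20% of which reached the Hox median. Group membership took up a median of 20.1% of the variance of log2 CPM for the Hox genes, from 13.6% to 57.2%. Over all genes it was 33.9%. With so few libraries, group membership takes up part of the variance even where groups do not differ. Sets of genes were described without a test of the set.

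**Figure D3:**
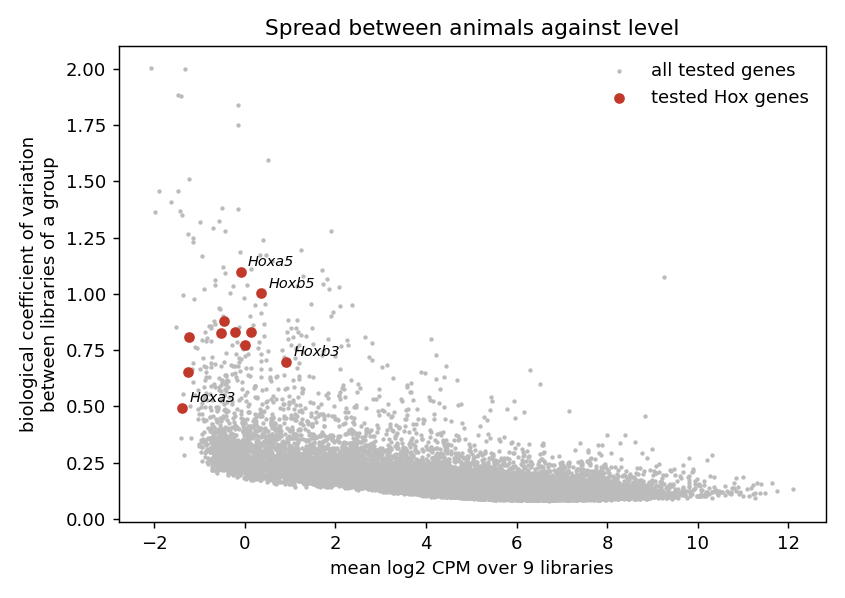
Biological coefficient of variation of each tested gene against its mean log2 CPM, with the Hox genes marked. The Hox genes lie between 0.495 and 1.10, above the median of 0.291 for genes of their level.

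The make-up of the Hox signal also differed between animals of 1 group. Groups 1 to 3 gave 37.8% of the Hox reads in control 1 (exact Clopper-Pearson 95% interval 33.6 to 42.2), 23.9% in control 2 (21.0 to 27.1) and 45.2% in control 3 (34.3 to 56.5). They gave 49.6% in stress 1 (43.1 to 56.1), 36.1% in stress 2 (30.3 to 42.1) and 50% in stress 3 (28.2 to 71.8). In the enriched libraries they gave 55.4% (45.7 to 64.8), 35.6% (29.3 to 42.2) and 54.5% (32.2 to 75.6). Control 2 thus had the lowest share of front paralogues of all, and in each group the second library was below the first with intervals that did not overlap. The intervals cover counting error only, since amplified reads without molecular identifiers are not independent molecules.

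Control 1 and control 2 were alike in the front class, with 11.6 and 11.4 CPM from groups 1 to 3, and differed further back, with 18.2 and 33.5 CPM from groups 4 and 5. Groups 6 to 9 gave 42 reads in control 2, 14 in control 1, at most 8 in any other library, and none in enriched 1 and enriched 3. The pair Hoxb5 and Hoxb2, whose reads are part of these classes, showed the same order between the first and second library of each group. Hoxb5 made up 57.5% of their joint reads in control 1 (47.9 to 66.8) and 78.5% in control 2 (72.9 to 83.5). It made up 47.4% in stress 1 and 74.2% in stress 2, and 36.4% in enriched 1 and 79.2% in enriched 2. Control 3 stood at 66.7%, between control 1 and control 2, and stress 3 and enriched 3 at 50%, all on very few reads. Hoxa5 made up 60.4% of the reads of Hoxa5 and Hoxa2 in control 1 (49.6 to 70.5) and 72.8% in control 2 (65.0 to 79.8). Its share was 50% in stress 1 and 61.5% in stress 2, and 45% in enriched 1 and 65.7% in enriched 2. In control 3 it was 75%, on 9 and 3 reads, and in enriched 3 it was 0%, on 0 and 2 reads. Stress 3 had no read of either gene. For that pair, and for Hoxb6 beside Hoxb5, the intervals of the first and second libraries overlapped in every group.

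**Figure D4:**
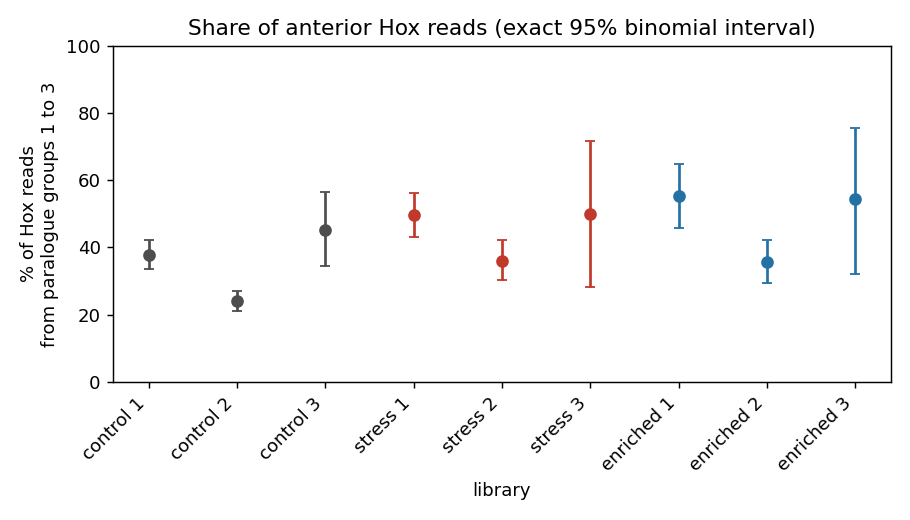
Share of Hox reads from paralogue groups 1 to 3 in each library, in percent with exact 95% binomial intervals. Control 2 is lowest at 23.9% and enriched 1 highest at 55.4%.

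The design asks how stress and an enriched environment differ from standard housing. No Hox gene passed in either comparison, nor between stress and enriched mice, with edgeR's quasi-likelihood test and Benjamini-Hochberg adjustment over all genes tested at a threshold of 0.05. The comparisons against standard housing share the 3 control libraries, so their values are set side by side and are not independent.

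Against the controls, the stress group had lower fitted levels for 11 of 11 Hox genes, with a median log2 fold change of -1.22 beside 0.02 over all genes and single values from -1.89 to -0.79. None was called (edgeR, smallest adjusted p = 0.546), as was true of 0% of all 14694 genes. None reached an unadjusted p under 0.05 with edgeR, while 7.98% of all genes did, and neither DESeq2 nor limma on TPM called any. Hoxb5 had a log2 fold change of -1.82 ± 1.16 (SE; edgeR adjusted p = 0.549) and Hoxb3 one of -0.79 ± 0.81 (SE; edgeR adjusted p = 0.667). The groups overlapped for all 11 genes, while 9.84% of all genes had groups that did not overlap. The median was -0.72 without stress 3, -1.99 without stress 2 and -0.79 without control 2. The count at an unadjusted p under 0.05 was 4 of 11 without control 3 and 1 without stress 2. Without the third library of every group, a choice made after the data were seen, it was 8. Over all genes these refits gave, in that order, 3555 of 14853, 393 of 14835 and 4976 of 14776.

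Against the controls, the enriched group was also lower in fitted level for 11 of 11, with a median log2 fold change of -1.93 beside 0.02 over all genes and values from -3.27 to -1.06. None was called (edgeR, smallest adjusted p = 0.236), as was true of 0% of all genes, and neither DESeq2 nor limma on TPM called any Hox gene. Hoxa3 and Hoxc5 were the 2 with an unadjusted p under 0.05, which 20.4% of all genes reached, and they were also the 2 whose groups did not overlap, as held for 26.1% of all genes. Hoxa3 had 0.724, 0.966 and 0.484 CPM in the controls against 0.120, 0.119 and 0 in the enriched libraries, a log2 fold change of -3.05 ± 0.98 (SE; edgeR adjusted p = 0.236). Hoxc5 had 1.03, 2.35 and 0.303 CPM against 0.0599, 0.297 and 0, a log2 fold change of -3.27 ± 1.13 (SE; edgeR adjusted p = 0.236). These rest on 0 to 5 reads per enriched library. Of the 5 annotated coding transcripts of Hoxa3, 3 have a row. For Hoxc5, control 3 and enriched 2 had 5 reads each, so the gap between them came from library size scaling. In TPM the Hoxc5 groups overlapped, with 0.23 in control 3 and 0.24 in enriched 2. Hoxb5 had a log2 fold change of -2.43 ± 1.2 (SE; edgeR adjusted p = 0.262). The count at an unadjusted p under 0.05 was 10 of 11 without control 3, 6 without stress 3 and 6 without enriched 2. Over all genes the same refits gave 5384 of 14853, 3672 of 14844 and 1647 of 14830. The Hox count was 1 without control 2, enriched 1 or enriched 3. Over all genes these gave 1554 of 14837, 2781 of 14841 and 1016 of 14844. Without the third library of every group it was 10 for Hox genes, beside 4627 of 14776 over all genes. The median over the 11 genes was -3.41 without enriched 2.

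Between stress and enriched mice the median log2 fold change was 0.62, higher under stress for 11 of 11, and the smallest edgeR adjusted p was 0.999. None of the 11 was called, none reached an unadjusted p under 0.05 and none had groups that did not overlap. The shares over all genes were 0%, 2.64% and 10.5%, and neither DESeq2 nor limma on TPM called a Hox gene. The median was 1.81 without enriched 2, 1.18 without stress 3, 0.29 without stress 1, 0.12 without stress 2 and 0.10 without enriched 3. The count at an unadjusted p under 0.05 was 1 of 11 without stress 3 and 1 without the third library of every group. Over all genes these refits gave 532 of 14844 and 487 of 14776.

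Standard errors of the Hox fold changes had medians of 0.95, 0.99 and 1.08 on the log2 scale in these comparisons, against 0.16 over all genes in each. An interval for Hoxb5, stress against control, ran from -4.40 to 0.77, so neither a large fall nor a modest rise lay outside it. The first letter of the animal code moves with the groups, since no stress animal has D and no enriched animal has C. Only the controls hold both letters, so a term for the letter rests on control 1 against control 2 and control 3. With that letter as a covariate the Hox medians were -1.59 for stress against control, -1.79 for enriched against control and 0.14 for stress against enriched, again with no Hox gene called. Among animals whose code begins with C, control 1 with 30.6 CPM stood above all 3 stress libraries. Among those with D, the enriched libraries lay on both sides of control 3 and below control 2.

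**Figure D5:**
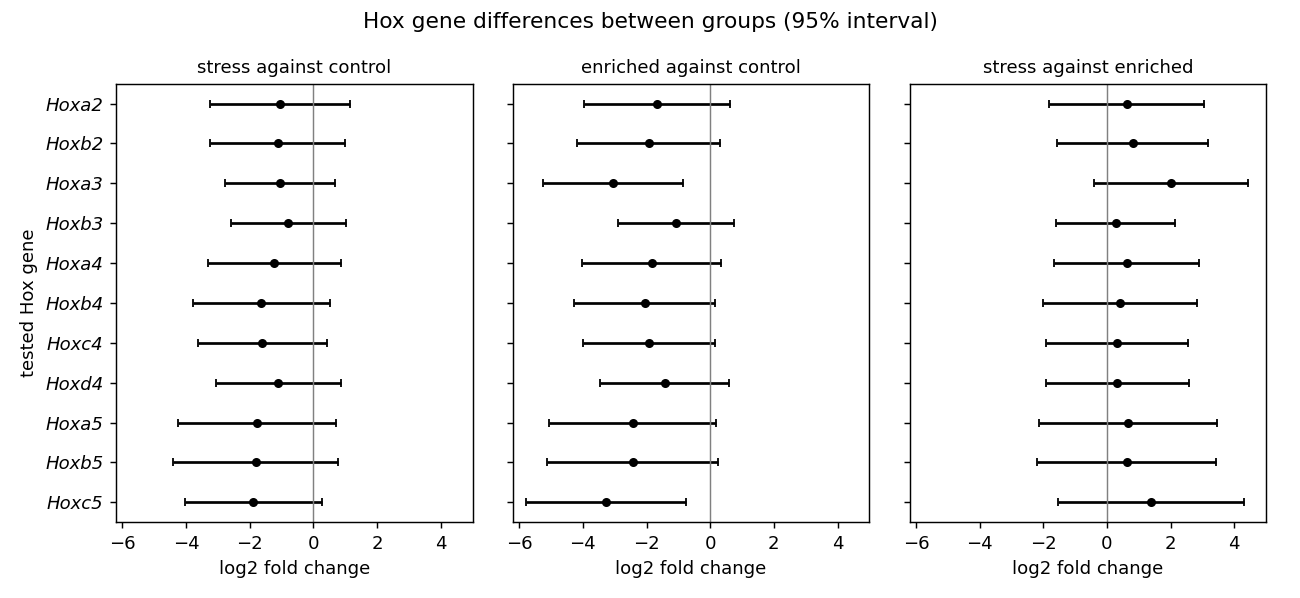
Log2 fold change of each tested Hox gene in the 3 comparisons, with 95% intervals from the edgeR fit. Points lie below 0 in both comparisons against the controls, and the intervals reach 0 for each gene except Hoxa3 and Hoxc5, enriched against control.

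Genes listed for other brain stem neurons, by transmitter or cell class, were set beside the Hox genes. How far they label the part of the tissue that uses Hox genes was not tested. Of the 23 listed, 22 were tested, 0 were called in any comparison (edgeR, with 0 at an unadjusted p under 0.05), and the median log2 fold changes were -0.28, -0.78 and 0.70 for stress against control, enriched against control and stress against enriched. Their summed level was 230, 211 and 46.8 CPM in the controls, 270, 144 and 53.7 CPM under stress and 153, 94.8 and 49.4 CPM in the enriched group. The third library was again the lowest of each group, while the order of the first and second libraries was not that of the Hox sum in any group.

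Slc6a5, the glycine transporter of glycinergic neurons, had 62.1, 68.2 and 22.9 CPM in the controls, 61.6, 52.2 and 17.0 under stress and 49.4, 49.9 and 21.7 in the enriched group. Glra1, a glycine receptor subunit of the brain stem and spinal cord, had 21.4, 22.0 and 2.42 CPM in the controls, 17.7, 12.7 and 2.38 under stress and 11.5, 11.7 and 3.26 in the enriched group. Prph, a neurofilament protein of motor and peripheral neurons, had 30.0, 22.0 and 0.605 CPM in the controls, 11.7, 8.55 and 3.97 under stress and 11.9, 1.55 and 0.502 in the enriched group. All 3 were lowest in the third library of each group, but the list was not uniform. The third library was the lowest for 22 of the 22 tested members in the controls, for 17 under stress and for 11 in the enriched group. Under stress, Tlx3 and Lbx1, which mark sensory neurons of the hindbrain and spinal cord, were highest in the third library, as was Isl1, a motor and sensory neuron gene, in the enriched group. These 3 were named after their values were seen.

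The 6 genes of peripheral sensory ganglia, tissue that can cling to the brain stem, summed to 5.07, 8.70 and 1.69 CPM in the controls. They summed to 5.16, 3.82 and 2.57 CPM under stress and to 4.13, 3.27 and 1.69 CPM in the enriched group. The third library was the lowest of each group in these sums and for the 2 tested members. Of these 2, 0 were called and 0 reached an unadjusted p under 0.05 (edgeR). Mrgprd was at 0 in every library. The myelin genes, high in brain stem tracts, summed to 3641, 4226 and 2275 CPM in the controls, 5168, 3396 and 2099 under stress and 3144, 2712 and 2741 in the enriched group. None of the 6 was called or reached an unadjusted p under 0.05 (edgeR), and their median log2 fold changes were -0.01, -0.37 and 0.29. The 15 forebrain patterning genes, of which 13 were tested, had their lowest sum, 90.6 CPM, in control 2, where the Hox sum was highest, and 267 CPM in control 3. Under stress the forebrain sums were 223, 260 and 233 CPM, and in the enriched group 311, 298 and 337 CPM, with 0 genes called, medians of 0.34, 0.64 and -0.30, and 0, 5 and 1 genes at an unadjusted p under 0.05, beside 7.98%, 20.4% and 2.64% of all genes. The part of the mix of regions in the Hox differences was not tested.

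A fit with group and the mean log2 CPM of the 11 Hox genes as terms, added after the data were seen, called 2 of 14683 other genes (0.0136%), with 843 at an unadjusted p under 0.05. Mab21l2 and Slc6a5 were the 2, each with an edgeR adjusted p of 0.0298, and both were higher where the Hox level was higher. Mab21l2 gained 0.75 log2 units and Slc6a5 0.60 log2 units per log2 unit of Hox level. The Hox level was measured in the same libraries, so this describes how these 9 libraries covaried.

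Ranked by the Pearson correlation of log2 CPM with the mean Hox level over the 9 libraries, which share their depth scaling and tissue mix, the 10 genes most alike ran from r = 0.970 to r = 0.919. They were Mab21l2, Sorbs3, Dnaaf3, H2-Bl, Itga2b, Nkx2-9, Rem2, Erfl, Pnpla6 and Slc7a10, and none of them is in any of the lists used here. Mab21l2, known in eye and midbrain development, had 24.6, 26.6 and 6.72 CPM in the controls, 18.3, 16.1 and 4.15 under stress and 10.2, 10.8 and 3.20 in the enriched group. Its r was 0.974 with group means removed and 0.935 without enriched 3 and stress 3, the libraries farthest from the median, and its Spearman rho was 0.967. Sorbs3, which encodes the adaptor protein vinexin, had r = 0.964 and rho = 0.967, and r = 0.928 without those 2 libraries, over a small span of 31.8 to 47 CPM. Nkx2-9, a homeobox gene of the ventral neural tube, had r = 0.933 and rho = 0.917, and r = 0.852 without them. These are the top of 14683 genes, and the ranking is a description.

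Genes that act with or upstream of Hox genes did not pass in any comparison. The TALE homeobox proteins, which bind DNA together with Hox proteins, had 9 of 9 tested, 0 called and median log2 fold changes of -0.05, 0.06 and -0.15. Meis2, widely used in the striatum, had 111, 72.5 and 189 CPM in the controls, 223, 232 and 99.4 under stress and 322, 171 and 246 in the enriched group. Among the controls it was thus highest in the library with the least Hox signal.

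Upstream regulators and retinoic acid genes, with 9 of 14 tested, had 0 called and medians of -0.17, 0.00 and -0.10. Cyp26b1, which breaks down retinoic acid, stayed between 15.2 and 22.5 CPM. Rarg, a retinoic acid receptor, stayed between 16.7 and 21.6 CPM. The Polycomb and Trithorax genes, which keep Hox genes silent or active, had 12 of 13 tested, 0 called and medians of 0.12, 0.28 and -0.11. Kmt2a, which maintains Hox expression, was lowest in control 1 with 95 CPM and reached 145 CPM in the enriched group. Over these lists, in the order stress against control, enriched against control and stress against enriched, unadjusted p-values under 0.05 were found for 0, 2 and 0 TALE genes, 0, 2 and 2 upstream genes, and 0, 2 and 0 Polycomb and Trithorax genes, and the share over all genes was 7.98%, 20.4% and 2.64%.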

How the data were processed

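Whole-transcript messenger RNA libraries from brain stem plus front brain of 9 mice were used, 3 per group. Per the submitters' processing notes, the tools were HISAT2 2.0.4, Bowtie2 2.2.5 and RSEM 1.2.12 with build GRCm38.p6. The authors deposited, for each of 65535 RefSeq transcript rows, an estimated count, a TPM and an FPKM, of which the FPKM values deposited by the authors were not used. The number of rows matches the limit of an old workbook format, so the deposited table may be cut. No filter or strand setting is given in the sources used here.

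Estimated counts were summed per gene, rounded, scaled by TMM, filtered with filterByExpr (minimum count 10, minimum total 15) and tested with edgeR 4.0.16 (robust quasi-likelihood, R 4.3.3) in 1 fit of all 9 libraries with group as the only term, which was checked on simulated data. Log2 CPM used a prior count of 2. Symbols were matched for 18398 of 18450 gene identifiers. TPM served for levels between genes and for limma 3.58.1 (pseudocounts 0.1 and 1). DESeq2 1.42.0, its size factors, no filter, a covariate for the first letter of the animal codes and leaving out each library were further alternatives. Adjusted p-values are Benjamini-Hochberg over all genes tested. Each library has its own animal code, so libraries were treated as separate animals.

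Hox genes with a mean of at least 1 CPM are given in every library, other members by range and count, and of the other lists at most the 3 most abundant tested members are named. Hoxa3 and Hoxc5 are named with values because they were the only 2 with an unadjusted p under 0.05, chosen after their values were seen. The Hox genes, the lists and the tests were chosen with earlier results of these data known. Some genes and sequences are not reported here.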

Additional observations from a re-analysis of the deposited data

How the results depend on the processing

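Hox genes called stayed at 0 in all 3 comparisons under every alternative run, with a smallest edgeR adjusted p of 0.0530, enriched against control without control 3 and also without the third library of every group. Counts over all genes, 0 in each comparison, did move. DESeq2 called 40 for enriched against control and 7 for stress against control. The letter covariate gave 3 for stress against control and 1 for stress against enriched. Without the third library of every group, an alternative chosen after the data were seen, 68 were called for enriched against control and 135 for stress against control. Leaving out 1 library gave 0 to 1586 for enriched against control (1586 without control 3, 33 without enriched 2) and 0 to 2 for stress against enriched (2 without enriched 2). The cause was not tested. The Hox median for enriched against control lay between -3.41 and -1.36 when 1 library was left out. From deposited TPM with limma and a pseudocount of 1, which understates changes of low genes, the Hox medians were -0.71 for enriched against control, -0.56 for stress against control and 0.17 for stress against enriched. Without the filter on low counts, 5 of 27 Hox genes reached an unadjusted p under 0.05 for enriched against control. Of all genes, 3208 of 18193 did. For stress against control it was 1 of 27 Hox genes and 1315 of 18193 over all genes. Counting a gene as detected at 10 reads in 1 library gave 12 Hox genes. Leaving out 1 library put the ratio of highest to lowest Hox sum at 1.55 to 9.34 in the controls, 1.99 to 9.70 in the enriched group and 1.15 to 12.3 under stress.

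Directions of the 6 detected genes turned under these alternatives only for stress against enriched. With the letter covariate, the log2 fold change was -0.30 for Hoxa4, -0.64 for Hoxb3 and -0.040 for Hoxc4. Leaving out 1 library gave -0.23 to 1.87 for Hoxa5 (below 0 without stress 2), -0.057 to 1.36 for Hoxb2 (below 0 without stress 1), -0.28 to 1.02 for Hoxb3 (below 0 without stress 1 or enriched 3), -0.20 to 2.14 for Hoxb5 (below 0 without stress 2) and -0.17 to 1.81 for Hoxc4 (below 0 without stress 2 or enriched 3). No paired analysis was possible because the replicate numbers were given in accession order.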

Other observations

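Lists of other tissue had 0 genes called by edgeR in every comparison. The 6 choroid plexus genes summed to 3254, 3072 and 3752 CPM in the controls, 366, 1519.9 and 1465 under stress, and 55.8, 2151 and 43.3 in the enriched group, an order that did not follow the Hox sum in the controls or under stress. The 6 endothelial genes had medians of 1.11 (stress against control) and 0.98 (enriched against control) on the log2 scale, with 3 and 2 of 6 at an unadjusted p under 0.05. Over all genes 7.98%, 20.4% and 2.64% reached it, in the order stress against control, enriched against control and stress against enriched. The 10 tested cerebellar genes summed to 4040, 5137 and 5455 CPM in the controls. They summed to 2987, 4510 and 5798 CPM under stress and to 3751, 5162 and 4730 CPM in the enriched group. They were thus abundant in every library, though the tissue is given as brain stem and front brain. The third library was the highest for 6 of the 10 in the controls, 10 under stress and 1 in the enriched group. How much cerebellum entered each library was not tested. The cerebellar genes had medians of -0.13, -0.04 and -0.08, the 7 tested midbrain and isthmus genes -0.41, -0.41 and 0.09, the 6 meningeal and fibroblast genes 0.01, 0.05 and 0.03, and the 6 leukocyte and blood genes 0.85, 0.17 and 0.30, in the order stress against control, enriched against control and stress against enriched. In that order, unadjusted p-values under 0.05 were found for 0, 1 and 0 choroid plexus, 1, 1 and 0 midbrain, 0, 1 and 0 meningeal and 2, 1 and 0 leukocyte and blood genes, and for no cerebellar gene. Of the skeletal muscle genes only Acta1 was tested, at 3.32 to 7.24 CPM.

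With the mean Hox level as a covariate, chosen after the data were seen, edgeR called 0 genes in each comparison. Genes at an unadjusted p under 0.05 then numbered 837 for stress against control, 1409 for enriched against control and 317 for stress against enriched, against 1172, 2994 and 388 without it.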
